A study of Mus musculus with 12 samples.

Results

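The genes described here are 10 genes of the circadian clock, Per1, Per2, Per3, Dbp, Bmal1, Nr1d1, Nr1d2, Tef, Bhlhe41 and Clock, measured in the hippocampus of TIF-IA CaMKCreERT2 mutant mice and their controls. They were found by gene symbol (Bmal1 carries its older symbol Arntl on this array) at 19 of 45135 probes, and they are 10 of the 19031 genes named on the array. In the 6 mutants a tamoxifen-inducible Cre driven by the Camk2a promoter, which is active in excitatory neurons of the forebrain, recombines floxed Rrn3. That gene encodes TIF-IA, a factor RNA polymerase I needs to start on ribosomal DNA. The 5 controls are littermates: floxed animals lacking Cre in the methods, wild type in the labels. Both genotypes were C57Bl/6N mice of both sexes that received tamoxifen at 2 months of age, and RNA was taken from hippocampal sections 4 weeks later. The labels number the animals, and the numbers fall into 2 series, the 300s (3 mutants and 1 control) and the 200s (3 mutants and 4 controls). The sources used here do not say what the numbers stand for, nor at what hour each animal was killed.

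The clock is a loop of transcription. The proteins CLOCK and BMAL1 pair and bind E-boxes in the genes of their own repressors, the Period and Cryptochrome genes, so that RNA of these genes rises and falls over the day. The nuclear receptors NR1D1 and NR1D2 (REV-ERB alpha and beta) close another loop by repressing Bmal1, and DBP and TEF, related factors of the PAR bZIP family, carry the rhythm to genes with D-boxes. In rodents such loops run in most tissues, the hippocampus included, under the lead of the suprachiasmatic nucleus, and light, feeding, glucocorticoids and neuronal activity shift them.

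Values below are normalized probe intensities on the log2 scale, where 1 unit is a doubling, and a probe is called detected in an animal at a detection p-value under 0.01. The bright Rrn3 probe averaged 7.84 ± 0.097 in mutants and 8.38 ± 0.11 in controls (SD, n = 6 and 5), lower in every mutant than in any control. Between 19193 and 21835 probes were detected on the 7 mutant arrays and between 19621 and 21889 on the 5 control arrays. Of the neuronal markers fixed for the tissue, 4 of 6 were detected in all animals (Snap25 in 0 and Nefl in 1), and so were 4 of 6 for dentate gyrus, 5 of 6 for CA1 and 6 of 6 for CA3. Markers of neighbouring tissue were present and uneven. The choroid plexus transcript Ttr ranged between 9.30 and 14.75 in mutants and between 9.77 and 14.57 in controls, the thalamic gene Prkcd between 6.83 and 10.98 in mutants and between 7.21 and 12.11 in controls, and the striatal gene Ppp1r1b between 9.86 and 12.58 in mutants and between 9.34 and 13.25 in controls.

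Of the 19 clock gene probes, 0 differed between mutants and controls at an adjusted p under 0.05 (limma, Benjamini-Hochberg over all probes), where 0.00222% of all probes did. At an unadjusted p under 0.05 there was 1, against 3.95% of all probes, and at the study's threshold of 0.001 there were 0. The lowest adjusted p of any of the 10 genes over 21 settings of the analysis was 0.879. The median difference, mutant minus control, over the brightest probe of each gene was 0.03 (log2), beside 0.0002 over all probes, and mutants overlapped controls at all 19 probes. The spread between animals set wide limits on these differences. For Dbp the 95% interval of the difference spanned from 0.555-fold to 2.00-fold, for Nr1d1 from 0.624-fold to 1.604-fold and for Bmal1 from 0.759-fold to 1.14-fold.

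**Figure D1:**
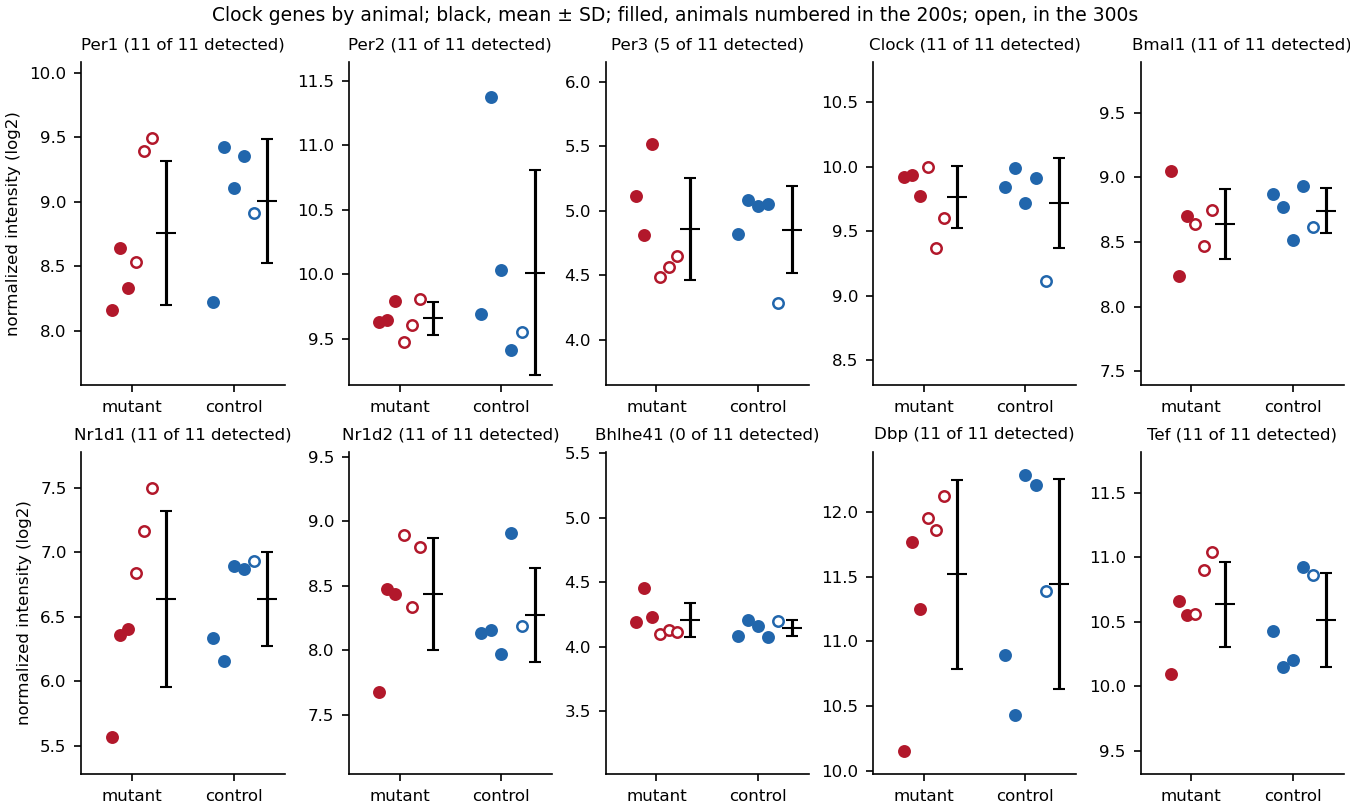
Normalized intensity (log2) of the 10 clock genes at their brightest probe, 1 point per animal, 6 mutants left of 5 controls in each panel; filled points are animals numbered in the 200s and open points those in the 300s, and black bars are mean ± SD. Every panel spans 2.5 log2 units, and mutants overlap controls in all of them. Control 2 stands at 11.38 for Per2, and Dbp spreads between 10.15 and 12.29.

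The activators overlapped between genotypes. Clock, which encodes one partner of the activating pair, had 9.92, 9.94, 9.77, 10.002, 9.37 and 9.60 in mutants 1 to 6, against 9.84, 9.99, 9.72, 9.91 and 9.12 in controls 1 to 5. Bmal1, which encodes the other, had 9.05, 8.24, 8.70, 8.64, 8.47 and 8.75 in mutants, against 8.87, 8.77, 8.52, 8.94 and 8.62 in controls. The lowest Clock values belonged to mutant 5 and control 5, both numbered in the 300s. The differences between genotypes were 0.05 ± 0.17 for Clock and -0.10 ± 0.13 for Bmal1 (log2, SE), with exact permutation p-values of 0.764 and 0.491. Within genotypes Bmal1 had an SD of 0.23 and Clock one of 0.29. The 2 arrays made from mutant 6 differed by 0.41 at the Bmal1 probe and by 0.23 at the Clock probe.

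The Period genes encode the repressors that accumulate and shut CLOCK and BMAL1 down. Per1 had 8.16, 8.64, 8.33, 8.53, 9.39 and 9.50 in mutants, against 8.23, 9.42, 9.11, 9.35 and 8.91 in controls, a range of 2.52-fold. Most mutants lay low and most controls high, but 2 mutants were the brightest or nearly so and 1 control was among the dimmest. The difference was -0.24 ± 0.29 (exact permutation p = 0.448), and a second probe gave -0.30 ± 0.22 (exact permutation p = 0.238); the 2 probes agreed closely across animals, with r = 0.91. Within the 200s alone the Per1 difference was -0.65 ± 0.30 (unadjusted p = 0.0652, limma), with all 3 mutants at or below 8.64 and 3 of 4 controls above 9. In the 300s, which hold 1 control, the difference went the other way (0.23).

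Per2 was even among mutants (SD 0.13) and uneven among controls (SD 0.80). It had 9.63, 9.65, 9.80, 9.47, 9.61 and 9.81 in mutants, against 9.69, 11.38, 10.04, 9.41 and 9.55 in controls. Control 2 stood above the other 10 animals, at the second bright probe too (10.82, against 8.86 to 9.51), and the 2 probes correlated at r = 0.98 across animals. The difference of -0.35 ± 0.30 between genotypes (exact permutation p = 0.357) became -0.01 without control 2. Per3, a weaker repressor in the mouse, was dim: its 2 probes were detected in 5 animals each, not all of them the same. At the brighter one it had 5.11, 4.81, 5.52, 4.49, 4.56 and 4.65 in mutants, against 4.82, 5.08, 5.03, 5.05 and 4.28 in controls, a difference of 0.004 ± 0.20 (exact permutation p = 0.987).

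The receptor genes Nr1d1 and Nr1d2 spread widely in both genotypes. Nr1d1 had 5.57, 6.36, 6.41, 6.84, 7.17 and 7.496 in mutants, against 6.34, 6.16, 6.89, 6.87 and 6.93 in controls. The mutants held both the lowest and the highest animals, 3.81-fold apart, and the means differed by 0.0009 ± 0.31 (exact permutation p = 0.998). Nr1d2 had 7.67, 8.47, 8.44, 8.90, 8.34 and 8.80 in mutants, against 8.14, 8.16, 7.97, 8.91 and 8.19 in controls, with control 4 standing apart from the other controls. The difference was 0.17 ± 0.22 (exact permutation p = 0.526). Its second probe gave the single unadjusted p under 0.05 between genotypes (-0.27 ± 0.09, exact permutation p = 0.0216, adjusted p = 0.996 by limma), and it was detected in 0 of 11 animals. Bhlhe41, which encodes the repressor DEC2 that competes for E-boxes, was likewise not well above background in any animal (0 of 11 detected, 4.07 to 4.45), and no fold is given for it.

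The output factors were bright. Dbp had 10.15, 11.77, 11.25, 11.96, 11.86 and 12.13 in mutants, against 10.89, 10.43, 12.29, 12.21 and 11.39 in controls. Animals differed by up to 4.41-fold, and each genotype held animals at both ends. Tef had 10.10, 10.66, 10.55, 10.56, 10.90 and 11.04 in mutants, against 10.43, 10.15, 10.21, 10.92 and 10.87 in controls. The differences between genotypes were 0.08 ± 0.42 for Dbp and 0.12 ± 0.19 for Tef, with exact permutation p-values of 0.864 and 0.543.

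Several of the genes spread widely within a genotype. The SD of Dbp within genotypes was 0.77, 2.91 times the median of the 15982 probes detected in all animals, and 1.81% of those probes had a larger one. Nr1d1 (0.56), Per2 (0.54) and Per1 (0.52) lay among the widest 6.09%, 7.11% and 7.73% of probes. Nr1d2 (0.40), Tef (0.34) and Clock (0.29) were closer to the median of 0.265. The 2 arrays of mutant 6 differed by 0.10 at Dbp, 0.20 at Per1 and Tef, 0.25 at Nr1d1 and 0.27 at Per2, and by 0.58 at Nr1d2, beside a median of 0.16 over detected probes. Nr1d2 spanned 2.35-fold over the animals.

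**Figure D2:**
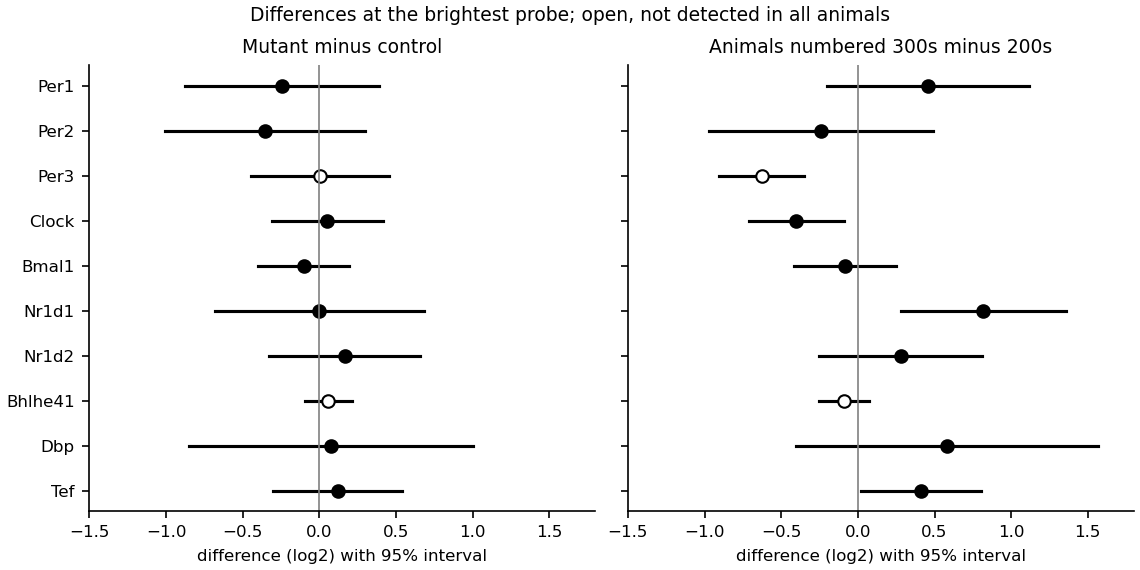
Difference (log2) with its 95% interval for the 10 clock genes at their brightest probe, between mutants and controls (left) and between animals numbered in the 300s and the 200s (right); open points are genes not detected in all 11 animals. All intervals on the left include 0. On the right those of Nr1d1 (0.82), Tef (0.41), Clock (-0.40) and the dim Per3 (-0.63) do not, before adjustment.

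Dbp and Nr1d1 varied together. Animals with much Dbp also had much Nr1d1, with r = 0.84 over 11 animals (permutation p = 0.00078, adjusted p = 0.0351 over 45 pairs; rho = 0.75, permutation p = 0.0111, adjusted p = 0.163). Mutant 1 was lowest for both genes (10.15 and 5.57), control 2 next lowest (10.43 and 6.16), and mutant 6 was behind only controls 3 and 4 for Dbp and highest for Nr1d1 (12.13 and 7.496). With the genotype means subtracted r was also 0.84, a step that could change little, as those means lay close together for both genes. Within the 200s it was higher (r = 0.91, exact permutation p = 0.000992 over 7 animals). The 300s hold 4 animals, too few for a value. Without mutant 1 and control 2, r was 0.63 with an exact permutation p of 0.0731, so that the relation rests in part on those animals. The adjusted p was over 0.05 when any 1 of mutants 1, 3, 4, 5 and 6 or controls 1, 2 and 4 was left out (0.0705 to 0.245), with r between 0.73 and 0.88 over all 11 omissions, and it was 0.0805 with the deposited log2 values (r = 0.81).

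Of the 45 pairs, 7 had an unadjusted permutation p under 0.05 and all 7 were positive. At an absolute r of 0.6 or more stood 8 of the 45 (17.8%), where 10.8% of the probes detected in all animals reached that value with 1 of the 10 genes on average (between 2.74% for Bhlhe41 and 23.4% for Clock; 15.4% for Dbp and 13.9% for Nr1d1). The 7 pairs joined Per1, Nr1d1, Nr1d2, Dbp and Tef. Nr1d1 and Tef reached r = 0.78 (permutation p = 0.00447, adjusted p = 0.101; rho = 0.79, permutation p = 0.00532), and Nr1d2 and Tef r = 0.71 (permutation p = 0.0152, adjusted p = 0.229; rho = 0.77, permutation p = 0.00754). Without the pair of animals farthest from the median these gave r = 0.59 and r = 0.54. The other 4, Dbp with Nr1d2 (0.66), Per1 with Nr1d1 (0.66), Dbp with Tef (0.64) and Nr1d1 with Nr1d2 (0.62), had adjusted p-values of 0.248 to 0.264, and r of 0.20 to 0.44 without the pair of animals farthest from the median. All Tef relations are those of its brighter probe. The other Tef probe, also detected in all 11 animals, correlated with it at r = 0.28, and its own relations were not tested. By Spearman's rho, 5 pairs had an unadjusted permutation p under 0.05 and 0 an adjusted one. Bmal1, which peaks in the opposite phase to Dbp and Nr1d1 in mouse tissues, had r = -0.50 with Dbp (permutation p = 0.121) and r = -0.36 with Nr1d1 (permutation p = 0.277). Per2 moved apart from this group, with r = -0.43 against Dbp (permutation p = 0.183) that became 0.09 without control 2.

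**Figure D3:**
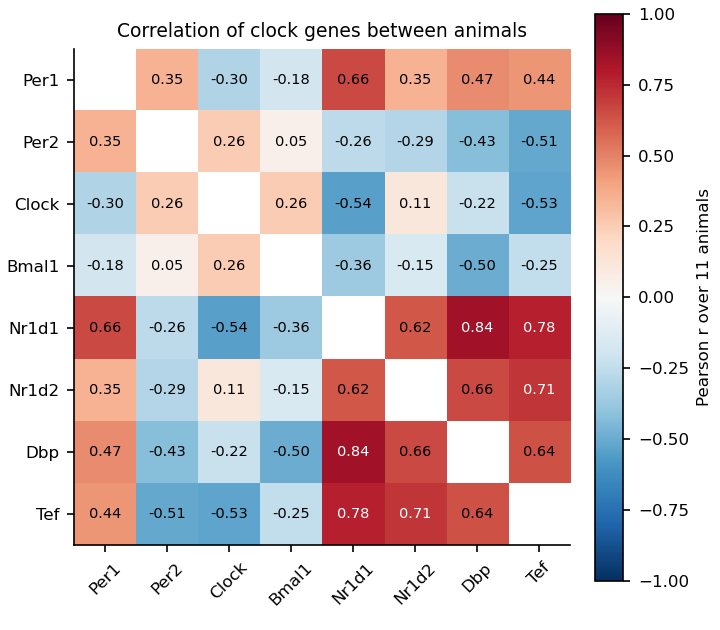
Pearson r over 11 animals between the 8 clock genes detected in all animals; red is positive, blue negative, and each cell gives r. At their brightest probes Nr1d1, Nr1d2, Dbp and Tef form a positive block of 0.62 to 0.84, with Per1 joined to Nr1d1 at 0.66.

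Among clock genes outside the 10, Ciart, Cry2 and Btrc each varied with 1 or more of them. Of 19 further clock genes listed, 16 had a named probe and 10 were detected in all animals, which made 100 relations with the 10 genes; 16 had an unadjusted permutation p under 0.05 and 4 an adjusted one. An absolute r of 0.6 or more was reached by 16%, beside the 10.8% of detected probes. Ciart, which encodes the repressor CHRONO, followed Dbp with r = 0.91 (permutation p = 9e-05, adjusted p = 0.0045; rho = 0.83, permutation p = 0.00283) and Nr1d1 with r = 0.89 (permutation p = 0.00039, adjusted p = 0.013; rho = 0.80, permutation p = 0.00477). Ciart had 6.40, 7.995, 7.64, 7.87, 8.41 and 8.58 in mutants, against 7.13, 7.17, 8.37, 7.88 and 7.54 in controls, again with mutant 1 lowest. Without mutant 1 and control 2 these relations stood at r = 0.83 (exact permutation p = 0.00606) and r = 0.74 (exact permutation p = 0.0244), and within the 200s at r = 0.94 and 0.90.

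Cry2, a Cryptochrome that represses CLOCK and BMAL1 together with the Period proteins, followed Per1 with r = 0.87 (permutation p = 9e-05, adjusted p = 0.0045; rho = 0.86, permutation p = 0.00118), and r was 0.87 without mutant 1 and control 1 (exact permutation p = 0.00175) and 0.85 within the 200s. Cry2 had 7.72, 8.11, 7.95, 8.10, 8.62 and 8.55 in mutants, against 8.12, 8.29, 8.26, 8.31 and 8.11 in controls. Mutants 5 and 6 were highest in Cry2 and among the highest in Per1. Btrc, a subunit of the ubiquitin ligase that takes Period proteins to the proteasome, ran opposite to Bmal1 with r = -0.83 (permutation p = 0.00165, adjusted p = 0.0412; rho = -0.88, permutation p = 0.00063), and r was -0.81 without mutants 1 and 2 (exact permutation p = 0.00879). By rho, 0 of the 100 relations had an adjusted p under 0.05, with the lowest at 0.059.

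**Figure D4:**
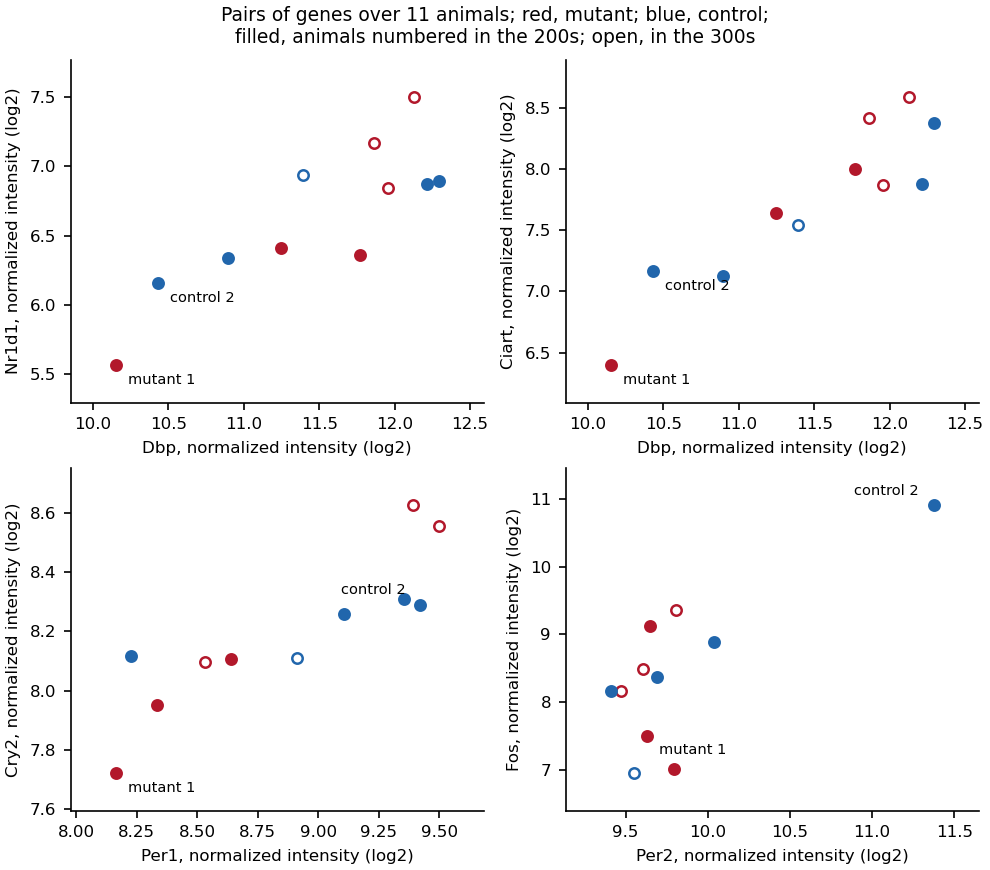
Normalized intensities (log2) of 4 pairs of genes over 11 animals, red for mutants, blue for controls, filled for the 200s and open for the 300s; mutant 1 and control 2 are named. Nr1d1 (r = 0.84) and Ciart (r = 0.91) climb with Dbp and Cry2 (r = 0.87) with Per1, in both genotypes, while control 2 alone is high in both Per2 and Fos.

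Probes of other genes on the array correlated with these genes as well. Among the 15970 probes detected in all animals, excluding those of the 10 genes, 0.67% correlated with Dbp as highly as Nr1d1 did and 0.0751% as highly as Ciart did, and 0.0438% correlated with Per1 as highly as Cry2 did. The weaker relations were less rare: 4.94% of probes correlated with Dbp as highly as Nr1d2 did and 5.91% as highly as Tef did, and 6.23% correlated with Nr1d1 as highly as Nr1d2 did. The median absolute r of those probes was 0.315 with Dbp, 0.315 with Nr1d1, 0.237 with Per1 and 0.215 with Bmal1. The 5 genes of 9485 most like Dbp were Tchp (0.94), BC028528 (0.93), Gabrd (0.92), Hip1r (0.92) and Lars2 (0.92), and those most opposite were Dstn (-0.95), Lin7c (-0.95), Efr3a (-0.94), Pinx1 (-0.93) and Zfpm2 (-0.91), over 11 animals and with no test. For Bmal1 the most alike were Dnaja2 (0.85), Zdhhc13 (0.84), Polr3k (0.82), Uhrf1bp1l (0.81) and Zfp607a (0.81), and the most opposite Cd52 (-0.87), Ost4 (-0.83), Ptdss2 (-0.83), Btrc (-0.83) and B3gntl1 (-0.82).

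Markers of tissue moved with Dbp as well. Its r with the mean of the 4 striatal markers detected in all animals was 0.80 (permutation p = 0.0036, adjusted p = 0.135 over 150 relations of genes with lists, and rho = 0.86, permutation p = 0.0011). With CA3 markers it was -0.69 (permutation p = 0.0195, adjusted p = 0.324; rho = -0.60, permutation p = 0.055) and with dentate gyrus markers -0.66 (permutation p = 0.0254, adjusted p = 0.346; rho = -0.75, permutation p = 0.0111). Without mutant 1 and control 2 these stood at 0.89, -0.71 and -0.68. The striatal mean, relative to its mean over animals, ranged between -1.42 and 1.65 in mutants and between -1.84 and 2.54 in controls. Of the 6 striatal markers with a probe, 4 were detected in all animals, Drd2 in 8 and Gpr6 in 4. After the striatal mean was regressed out, a step added after seeing the data, Dbp and Nr1d1 had r = 0.90 (permutation p = 0.00012, adjusted p = 0.0054), Dbp and Ciart 0.90, and Per1 and Cry2 0.85. The permutation made no allowance for the regression itself. Other relations of Dbp changed with this step. Its r went from 0.60 to -0.31 with Rora, from 0.61 to 0.20 with Rorb and from 0.39 to -0.08 with Gsk3b. With Csnk1d it rose from 0.56 to 0.89. What these changes come from was not tested, nor was the part of the CA3 and dentate gyrus markers. In bulk RNA, fewer cells of a type and less RNA per cell cannot be told apart.

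Promoter sequences are given for Per1, Nr1d1, Nr1d2, Dbp and Tef, the genes of the 7 pairs, for Ciart, and for Per3 and Bmal1, whose windows hold the motifs of the other arms of the loop. RefSeq windows of build GRCm38.p6, from 250 bases before to 50 after an annotated start, were found for 9 of the 10 genes (14 windows). Per2 is the other gene. Each motif was searched on both strands. They were the E-box CACGTG, its variant CACGTT, which reads AACGTG from the other strand, the D-box written TTATGTAA or, in a further form, TTACGTAA, the ROR element written TAGGTCA or, in a further form, TGGGTCA, through which NR1D receptors act, and the cAMP response element TGACGTCA, which was in no window of the 10 genes. No matches overlapped. The E-box was in 4 of the 14 windows, those of 3 genes, Per1, Tef and Bhlhe41, and is held by 7.15% of all 32851 windows. Nr1d1 held the variant (4.68% of windows), Per3 a D-box at 2 places (1.06%) and Bmal1 a ROR element (6.45%), while Dbp, Nr1d2 and Clock had none of these letters in their windows. Stretches of 120 bases around the matches follow, 5′ to 3′ on the gene's strand, with the matches in capitals. The stretch of Per1 is chr11:69098726-69098845 (plus strand), with the E-box 166 bases before the start, and that of Nr1d1 chr11:98775343-98775462 (minus strand), with the variant 28 before. Tef, at the first of its windows, is chr15:81802489-81802608 (plus strand), with an E-box 127 before, and Ciart chr3:95882246-95882365 (minus strand), with E-boxes 116, 58 and 44 before. Per3 is chr4:151044784-151044903 (minus strand), with D-boxes 205 and 158 before, and Bmal1, at its second window, chr7:113207441-113207560 (plus strand), with the ROR element at base 31 after the start. Dbp (chr7:45704997-45705296, plus strand) and Nr1d2 (chr14:18239057-18239356, minus strand), which held no match, are given as whole windows of 300 bases.
Per1: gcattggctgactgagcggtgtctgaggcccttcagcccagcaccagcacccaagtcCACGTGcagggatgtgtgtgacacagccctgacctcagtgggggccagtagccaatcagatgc
Nr1d1: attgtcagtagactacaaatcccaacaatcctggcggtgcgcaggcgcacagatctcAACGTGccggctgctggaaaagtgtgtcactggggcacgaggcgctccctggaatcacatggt
Tef: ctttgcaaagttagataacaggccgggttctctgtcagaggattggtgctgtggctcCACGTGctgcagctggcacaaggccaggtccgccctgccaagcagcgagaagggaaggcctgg
Ciart: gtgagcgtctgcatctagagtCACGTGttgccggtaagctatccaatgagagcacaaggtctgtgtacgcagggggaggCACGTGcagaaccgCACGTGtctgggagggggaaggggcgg
Per3: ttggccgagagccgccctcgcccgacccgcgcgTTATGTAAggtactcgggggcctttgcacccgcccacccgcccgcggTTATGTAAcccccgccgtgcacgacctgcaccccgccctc
Bmal1: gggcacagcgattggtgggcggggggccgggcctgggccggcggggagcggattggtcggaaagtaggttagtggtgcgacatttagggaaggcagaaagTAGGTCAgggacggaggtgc
Dbp: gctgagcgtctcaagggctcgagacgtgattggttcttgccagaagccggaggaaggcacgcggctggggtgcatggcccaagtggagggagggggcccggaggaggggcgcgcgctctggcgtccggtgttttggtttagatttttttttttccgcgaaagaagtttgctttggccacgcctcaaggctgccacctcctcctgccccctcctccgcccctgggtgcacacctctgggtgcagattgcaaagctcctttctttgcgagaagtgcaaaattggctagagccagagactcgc
Nr1d2: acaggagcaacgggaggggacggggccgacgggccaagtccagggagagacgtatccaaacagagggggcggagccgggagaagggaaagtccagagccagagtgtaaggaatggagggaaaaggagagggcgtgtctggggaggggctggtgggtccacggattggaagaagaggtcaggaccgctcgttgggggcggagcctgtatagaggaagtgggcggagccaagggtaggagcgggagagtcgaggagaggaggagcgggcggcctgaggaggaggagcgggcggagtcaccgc
A match describes the letters in a window and is no measurement of binding.

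**Figure D5:**
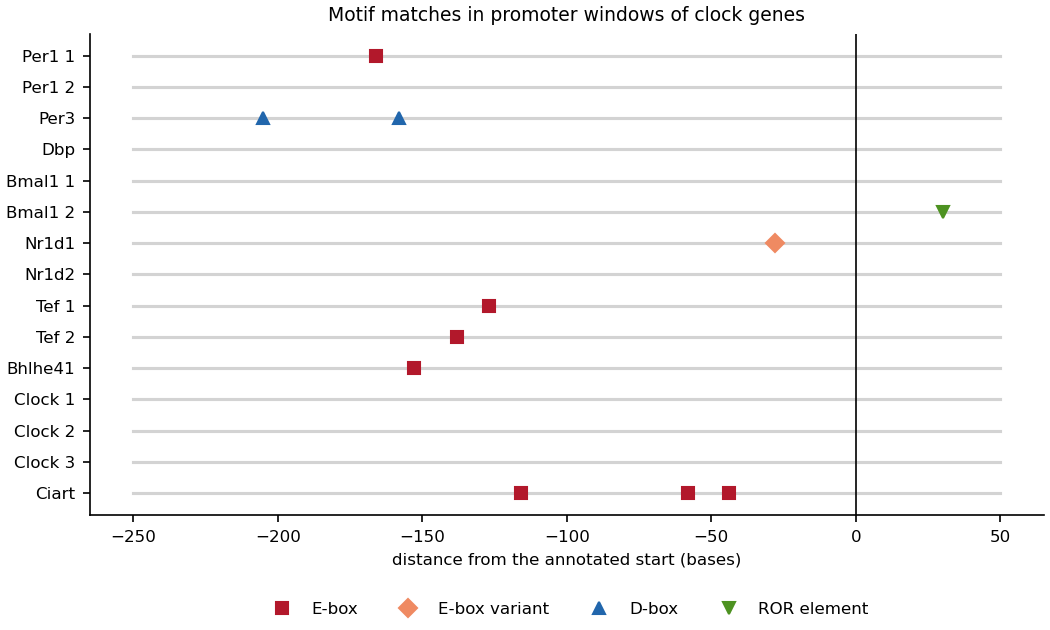
Matches of 4 motifs in the RefSeq promoter windows of the clock genes, as distance in bases from the annotated start (0), with 1 grey line per window; numbers after a name tell windows of 1 gene apart. Ciart holds 3 E-boxes and Per3 a D-box at 2 places, and the windows of Dbp, Nr1d2 and Clock no match.

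Between the number series, with genotype as a term, 0 of the 19 clock gene probes passed an adjusted p under 0.05, where 0.0465% of all probes did, and 4 passed an unadjusted p under 0.05, against 10.7% of all probes and 19.5% of those detected in all animals. Of the 12 clock gene probes detected in all animals 3 passed it, which is near that background. Nr1d1 had 6.84, 7.17 and 7.496 in the mutants and 6.93 in the control of the 300s, against 5.57, 6.36 and 6.41 in the mutants and 6.34, 6.16, 6.89 and 6.87 in the controls of the 200s. The difference, 300s minus 200s, was 0.82 ± 0.24 (adjusted p = 0.257, limma), and among mutants alone 1.06 ± 0.28 (adjusted p = 0.452, limma). The 300s exceeded most of the 200s, and controls 3 and 4 of the 200s reached into their range. Tef differed by 0.41 ± 0.18 (adjusted p = 0.444, limma) and Clock by -0.40 ± 0.14 (adjusted p = 0.328, limma). The second Tef probe gave 0.06 ± 0.19 and the second Clock probe -0.02 ± 0.13, and across animals these probe pairs correlated at r = 0.28 and 0.36 only.

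The smallest p of the 19 probes belonged to Per3. Its brighter probe had 4.49, 4.56 and 4.65 in the mutants and 4.28 in the control of the 300s, against 5.11, 4.81 and 5.52 in the mutants and 4.82, 5.08, 5.03 and 5.05 in the controls of the 200s, so that the series did not overlap. The difference was -0.63 ± 0.12 (adjusted p = 0.122, limma). The other Per3 probe went the opposite way (0.30 ± 0.15, adjusted p = 0.548, limma; r = -0.42 with the first), and both probes lay near background. Dbp (0.58 ± 0.44), Per1 (0.46 ± 0.30) and Nr1d2 (0.28 ± 0.24) had positive differences, and Per2 (-0.24 ± 0.33) and Bmal1 (-0.08 ± 0.15) negative ones, none with an unadjusted p under 0.05.

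Other measures differed along the same line. The median intensity of an animal's arrays lay between 105.6 and 106.6 in the 300s and between 83.1 and 106.5 in the 200s, and it correlated over the 11 animals with Tef (r = 0.69, permutation p = 0.0233, adjusted p = 0.117 over 10 genes; rho = 0.65, permutation p = 0.0339) and Nr1d1 (r = 0.61, permutation p = 0.0441, adjusted p = 0.147; rho = 0.58, permutation p = 0.0664). The undetected Bhlhe41 had r = -0.66 (permutation p = 0.0137, adjusted p = 0.117; rho = -0.46, permutation p = 0.154) and Nr1d2 r = 0.55 (permutation p = 0.0827, adjusted p = 0.207; rho = 0.49, permutation p = 0.13). Without mutant 2 and control 5, r was 0.88 for Tef, 0.62 for Nr1d1, -0.59 for Bhlhe41 and 0.84 for Nr1d2. Ttr averaged 10.80 in the 300s and 13.71 in the 200s (difference -3.35 ± 1.05, adjusted p = 0.285, limma). Clock followed the mean of the choroid plexus markers, with r = 0.79 (permutation p = 0.00092, adjusted p = 0.046 over 150 relations; rho = 0.85, permutation p = 0.00141, adjusted p = 0.0705) and r = 0.83 without mutant 5 and control 5. Within the 200s this r was 0.66 (exact permutation p = 0.114). The second Clock probe, which correlated with the first at r = 0.36, was not tested against these markers. Of the probes detected in all animals, 4.40% reached an absolute r of 0.8 or more with Clock. Of the 12 choroid plexus markers 9 had a probe and 4 were detected in all animals. The mean of those 4 ranged between -2.05 and 2.01 in mutants and between -1.97 and 1.86 in controls. The part of these measures in the differences between series was not tested.

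Dbp and Clock correlated broadly over the array. Of the probes detected in all animals, 15.4% reached an absolute r of 0.6 or more with Dbp and 23.4% with Clock. The mean share over the 10 genes was 10.8%. An absolute r of 0.8 or more was reached by 2.20% with Dbp and 4.40% with Clock. These are shares of single probes, not of lists. The share that means of lists of other genes would reach was not tested. Of the 150 relations between the 10 genes and the means of lists, 17 had an unadjusted permutation p under 0.05 and 3 an adjusted one. Besides that of Clock with choroid plexus markers, they were those of Dbp with the mean of the other clock genes (r = 0.84, permutation p = 0.00086, adjusted p = 0.046; rho = 0.81, permutation p = 0.00356, adjusted p = 0.134; r = 0.85 without mutant 1 and control 2) and of Dbp with genes of the clock's inputs. In the mean of the other clock genes, which is not scaled, the widest genes weigh most, Rora (6.97 to 9.83) and Ciart (6.40 to 8.58). Their own r with Dbp was 0.60 and 0.91. After the striatal mean was regressed out it was -0.31 for Rora and 0.90 for Ciart. Dbp ran opposite to the mean of 12 glucocorticoid- and temperature-responsive genes, those of a list of 14 detected in all animals (r = -0.87, permutation p = 0.00066, adjusted p = 0.046, and rho = -0.91, permutation p = 0.00025, adjusted p = 0.0375). Without mutant 1 and control 2 the r was -0.91. The list mixes genes induced by glucocorticoids, heat and cold, and its single genes were not tested against Dbp. The cold-induced Cirbp, part of the mean, was lowest in control 2 (8.60) and mutant 1 (8.91), the animals lowest in Dbp (10.43 and 10.15). Between genotypes 1 of the 14 was lower at an unadjusted p under 0.05, Sgk1, a glucocorticoid-induced kinase (11.39 ± 0.25 in mutants and 11.81 ± 0.44 in controls, SD; adjusted p = 0.996, limma), where 3.95% of all probes passed that threshold. Control 2 had 12.58. Without this animal, left out after seeing the data, the difference of -0.43 became -0.24. Between series, where 10.7% of all probes passed, 2 of the 14 did. Cirbp, an RNA-binding protein induced by cold, averaged 9.65 in the 300s and 9.06 in the 200s (0.55 ± 0.18, adjusted p = 0.303, limma), and Hsp90aa1, a chaperone induced by heat, 10.14 in the 300s and 10.60 in the 200s (-0.59 ± 0.17, adjusted p = 0.235, limma). The median difference of the list was -0.13 between genotypes and -0.12 between series, beside 0.0002 and -0.002 over all probes.

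Per2 varied with genes induced by neuronal activity, a relation that rests on 1 animal. Its r with the mean of 8 activity-induced genes, those of 11 listed that were detected in all animals, was 0.74 (permutation p = 0.0139, adjusted p = 0.299, and rho = 0.62, permutation p = 0.0478). Without control 2 the r was 0.36 (permutation p = 0.303), a value added after seeing the data. Control 2 had 10.90 for Fos, against 6.95 to 8.88 in the other controls and 7.01 to 9.36 in mutants. It had 10.82 for Fosb, against 6.34 to 6.83 in the other controls and 5.86 to 7.42 in mutants, and 11.30 for Arc, against 8.81 to 9.83 in the other controls and 8.07 to 10.56 in mutants. Sgk1 (12.58) and Zbtb16 (7.98), which respond to glucocorticoids, were also highest in this animal. These 5 genes were chosen after their values were seen. Of the list that holds Sgk1 and Zbtb16, Cdkn1a, Sult1a1 and Errfi1 were highest in control 2 too. Fkbp5, of the same list, was not (8.65 in control 2, against 8.92 in control 1 and 8.79 in mutant 1). Per1, which responds to the same inputs, was also high in control 2 (9.42), where it lay between mutants 5 and 6 (9.39 and 9.50).

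Of the other listed clock genes, 0 of 16 had an unadjusted p under 0.05 between genotypes, with a median of 0.004, against 3.95% of all probes, and 1 was higher in the 300s, against 10.7% of all probes in either direction. It was the ubiquitin ligase gene Fbxl21 (0.41 ± 0.13, adjusted p = 0.284, limma), which was detected in 3 of 11 animals. Those with the smallest p between genotypes were Hlf, a PAR bZIP factor like Dbp and Tef (4.93 ± 0.49 in mutants and 4.50 ± 0.20 in controls, SD, adjusted p = 0.996 by limma, detected in 5 animals), and Bmal2, a paralog of Bmal1 that was detected in 0 animals. Of 9 clock outputs with a probe, 1 had an unadjusted p under 0.05 between genotypes, against 3.95% of all probes, Cys1 (0.20 ± 0.07, adjusted p = 0.996, limma), detected in 0 animals, and 0 between series.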

How the data were processed

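Hippocampal RNA of 11 mice was hybridised to 12 Illumina MouseWG-6 v2 arrays. The authors deposited for each array a probe intensity on a linear scale, not background-subtracted, and a detection p-value; they also deposited log2 values that the methods describe as background-subtracted and quantile normalized. Among upstream tools, limma is named by the submitters' processing notes, without a version. Of 46089 lines, 954 without a probe name were left out. In R 4.3.3 with limma 3.58.1, background was corrected by normexp with detection p-values (offset 16), arrays were quantile normalized and log2 taken; the 2 arrays of mutant 6 were averaged. All 45135 probes were fitted (lmFit, eBayes, Benjamini-Hochberg), for genotype and for number series with genotype as a term. Single genes were also tested by exact two-sided permutation over 462 groupings (smallest p 0.00433). Correlations used two-sided permutation with 100000 resamples, exact over 7 or 9 animals. Where 1 value per gene is given, it is from the brightest probe. All 10 genes are named at every probe, and of each list the genes at an unadjusted p under 0.05 or else the 2 with the smallest p. A list's mean is over its genes detected in all animals, each centred on its mean over animals. The platform annotation gives 34773 probes 1 symbol, 18 several and 10344 none. The genes and lists were chosen with earlier results of these data known. The steps were tested on simulated data. The number of arrays limits the precision.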

Additional observations from a re-analysis of the deposited data

Results flagged for a closer look

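Nr1d2 in control 4, at its brighter probe, stood apart from the other controls: 8.91, against 7.97 to 8.19, a gap of 0.765 of the range where 0.71 is the critical value for 5 animals. The mutants reached 8.90 and 8.80 as well, and the 2 arrays of mutant 6 differed by 0.58 at this probe. It was 1 of 38 groups of animals tested, and chance marks about 1 in 20. Control 4 was also highest in the thalamic gene Prkcd (12.11) and in Rora (9.83), a clock gene that thalamus expresses; r between Nr1d2 and the mean of the thalamic markers was 0.55 (permutation p = 0.0797, adjusted p = 0.429; rho = 0.50, permutation p = 0.12), and 0.29 without mutant 1 and control 4.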

How the results depend on the processing

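The count of 0 clock gene probes at an adjusted p under 0.05 held under every alternative run, between genotypes and between series. The count between genotypes at an unadjusted p under 0.05 was 0 with only probes detected in at least 5 animals, 3 among the 200s alone, and 1 to 2 when an animal was left out (2 without control 5). The count of covarying pairs at an adjusted p under 0.05 was 0 with the deposited log2 values, 0 without background correction, 0 by Spearman's rho, 2 in the 200s alone (Dbp with Nr1d1, and Nr1d2 with Tef at r = 0.94), and 0 to 4 when an animal was left out: 0 without mutant 1, 3, 4, 5 or 6 or control 1 or 4, and 4 without control 3. The r of Dbp and Nr1d1 stayed between 0.73 and 0.91 in these, and the cause of the lost calls was not tested. Uncalled genotype differences changed sign in 12 instances. These were Per3 (-0.0073 with cyclic loess, -0.059 as the mean over detected probes), Clock (-0.065 as that mean) and Nr1d1 (-0.020 with only the first array of mutant 6). With the number series as a block they were Dbp (-0.10), Nr1d1 (-0.24) and Tef (-0.0034), and in the 200s alone Dbp (-0.40), Nr1d1 (-0.45) and Nr1d2 (-0.10).

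Whether replicate numbers pair the animals is not stated. Deviations of same-numbered mutants and controls correlated at 0.32, -0.06, -0.05, 0.61 and 0.62, and 3 of 5 controls correlated best with their own number. These values do not exclude a pairing, but the animals were treated as unpaired. The replicate block, which drops mutant 6, left the counts at 0 and 1 and gave -0.046 for Dbp and -0.17 for Nr1d1.

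When 1 animal was left out, genotype differences ranged from -0.14 to 0.079 for Per3, -0.098 to 0.13 for Clock, -0.18 to 0.35 for Dbp and -0.17 to 0.22 for Nr1d1; the series difference of Bmal1 ranged from -0.22 to 0.027 and r of Per2 and Dbp from -0.63 to 0.090.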
